A study of Mus musculus with 6 samples.

Results

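The collagen genes were described by structural class in side population (SP) cells of the mouse heart, which are cells that pump out the dye Hoechst and were sorted for it. Members were all genes whose symbol is Col, a type number, the letter a and a chain number, which gave 44 of the 50600 genes in the deposited table, spread over 15 chromosomes. By class there were 11 fibrillar collagens, 6 of the basement membrane (type IV), 3 network formers, 6 of the beaded filaments (type VI), 9 FACITs (fibril-associated collagens with interrupted helices), 4 with a transmembrane domain, 2 multiplexins, the anchoring fibril collagen Col7a1 and 2 others, Col26a1 and Col28a1.

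RNA was sequenced from 3 wt libraries of strain C57BL/6NRj and 3 libraries labelled flt3L-/- of strain C57BL/6Flt3Ltml/mx on a C57BL/6N background, a line described as a knock-out of the ligand of the receptor Flt3. The mice were 8 to 12 weeks old, no treatment is named, and the hearts of 4 mice were pooled for each library and depleted of cardiomyocytes and erythrocytes before the sort. A library of each genotype was sorted on each of 3 dates, 22 and 24 August 2016 and 29 August 2017, and the libraries of a date are called pair 1, 2 and 3 in that order. The comparison asked how gene expression differs between freshly isolated SP cells of both genotypes. Limits of the groups are that the animals were pooled, that neither littermate controls nor a restriction of the deletion to a tissue are given in the sources used here, and that the SP is a mixture of cell types.

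Collagens are trimers with a helix of repeated glycine triplets, and most of them are secreted. Fibrillar collagens build the tensile fibres that cardiac fibroblasts lay between muscle cells, and FACITs sit on the surface of those fibrils. Type IV collagen forms the mesh of basement membranes around vessels and muscle cells, type VI forms beaded filaments between that mesh and the fibrils, and multiplexins carry fragments such as endostatin next to the endothelium.

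Total counts lay between 24370913 and 31145519 per library, and 3 counts corresponded to 0.109 to 0.127 CPM (counts scaled to a fixed library size with TMM factors). The targeted gene Flt3l had 8.67 to 12.1 CPM in the wt libraries and 12.4 to 14.4 CPM in those labelled flt3L-/- (log2 fold change 0.37, SE 0.20, adjusted p = 0.973 in edgeR). Its reads were thus not lower under the label flt3L-/-. Of its exon bases, 22.1% are shared with Gm45713, so a part of these unstranded reads could come from that gene. Which exons of Flt3l the allele lacks is not given in the sources used here. The Flt3L protein, which the study measured by ELISA in cultured cells, is not part of these data. Below, flt3L-/- therefore names the libraries so labelled. Among the collagens a single library stood apart before any test. The flt3L-/- library of pair 3 had the lowest level of all 6 libraries for 30 of the 35 tested collagens. The wt library of pair 1 had the highest for 22. How many of all tested genes were lowest or highest in these libraries was not counted, so the pattern may not be particular to collagens. Collagens took 1.185%, 1.33% and 0.913% of the counts on tested genes in wt libraries of pair 1, 2 and 3 and 1.12%, 0.966% and 0.439% in the flt3L-/- libraries. Each library is a separate pool of mice, and p-values measure the spread between these pools after the sorting date.

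Several collagens lie next to each other in the genome. Col4a1 and Col4a2, which encode the chains of the most common type IV trimer, are transcribed in opposite directions from chromosome 8, and their annotated starts overlap by 22 bases (GRCm38). These bases are shown because they are shared by both genes, so that unstranded reads over them cannot be assigned to either.

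Col4a1 and Col4a2 overlap, chr8:11312805-11312826, plus strand: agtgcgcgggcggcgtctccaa

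Col4a3 and Col4a4 also lie head to head on chromosome 1 with 71 bases between them, and Col4a5 and Col4a6 on chromosome X with 1308 bases. Col3a1 and Col5a2 lie tail to tail on chromosome 1 with 24614 bases between them. Col6a1 and Col6a2 lie on the same strand of chromosome 10 with 85161 bases between them, and Col6a4, Col6a5 and Col6a6 follow each other on chromosome 9 with gaps of 28810 and 27917 bases. In all, 13 of the 44 members share exon bases with another annotated gene, so a part of their unstranded reads could come from it. The share was largest in Col9a3 (6.07%, with Tcfl5) and Col4a3 (5.65%, with C430014B12Rik).

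The 250 bases before the start of Col3a1 and Col8a1 are shown because these collagens had the smallest p-values for the sorting date below. Sequences were taken from RefSeq on GRCm38.p6 and are written 5′ to 3′ on the strand of the gene. Capitals mark TATAAA in Col3a1, whose capitals open 117 bases before the start, and in Col8a1 the 4 matches to GGGCGG, all read on the other strand as CCGCCC, at 170, 73, 66 and 23 bases before the start.

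Col3a1, chr1:45311288-45311537, plus strand: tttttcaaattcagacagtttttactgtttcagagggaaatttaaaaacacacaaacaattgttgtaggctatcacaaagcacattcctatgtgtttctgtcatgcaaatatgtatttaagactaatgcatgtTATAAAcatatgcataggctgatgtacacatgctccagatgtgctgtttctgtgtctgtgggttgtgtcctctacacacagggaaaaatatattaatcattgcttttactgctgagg

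Col8a1, chr16:57754738-57754987, minus strand: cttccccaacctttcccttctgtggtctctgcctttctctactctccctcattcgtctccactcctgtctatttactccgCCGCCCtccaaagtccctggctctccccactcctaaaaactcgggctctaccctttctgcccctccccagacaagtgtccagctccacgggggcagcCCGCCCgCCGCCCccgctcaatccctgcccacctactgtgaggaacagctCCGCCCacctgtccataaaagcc

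RefSeq windows matched 35 of the 44 members, with 38 windows among them. In the 250 bases before the start, on either strand, CCAAT was present in 13 of the 38 windows (34.2%), against 33.8% of all 32851 windows searched over the same 250 bases. TATAAA was present in 5 (13.2%, against 12.4%), among them Col3a1, Col11a2 and Col13a1. GGGCGG was present in 22 (57.9%, against 32.7%). The motifs do not contain each other, these are matches of letters and not binding sites, and the excess of GGGCGG was not tested.

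Levels differed between classes by orders of magnitude. Compared per kb of merged exon, type IV collagen had the highest class sum in all 6 libraries, with Col4a1 at a mean of 446 CPM per kb over the 6 libraries and its partner Col4a2 at 265 CPM per kb. Col3a1, the chain of the homotrimeric type III collagen, followed with 153 CPM per kb, ahead of the type VI chain Col6a1 with 89.1 and the type I chains Col1a1 with 85.3 and Col1a2 with 62.6 CPM per kb. Col6a2 (29.5), the multiplexin Col18a1 (25.6), the network collagen Col8a1 (19.9) and the FACIT Col14a1 (19.7 CPM per kb) completed the 10 most abundant members. On merged exons, each gene of this order down to Col6a1 lay above the next in 6 of 6 libraries, as did Col1a2 above Col6a2. Neighbours that changed places between libraries were Col6a1 and Col1a1 (this order in 3 of 6), Col1a1 and Col1a2 (5 of 6), Col6a2 and Col18a1 (4 of 6), Col18a1 and Col8a1 (4 of 6) and Col8a1 and Col14a1 (3 of 6). The order depends on the length used. With the longest transcript in place of merged exons, Col3a1 (mean 270 CPM per kb) came close to Col4a2 (272) and exceeded it in some libraries. Col1a2 had a mean of 145 CPM per kb and lay above Col6a1 (95.2) and Col1a1 (94.4), and Col5a2 (25.4) lay above Col14a1 (21.4). By this length the fibrillar sum exceeded the type IV sum in wt pair 1 and flt3L-/- pair 2. On merged exons the highest transmembrane collagen was Col13a1, with 4.18 CPM per kb.

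**Figure D1:**
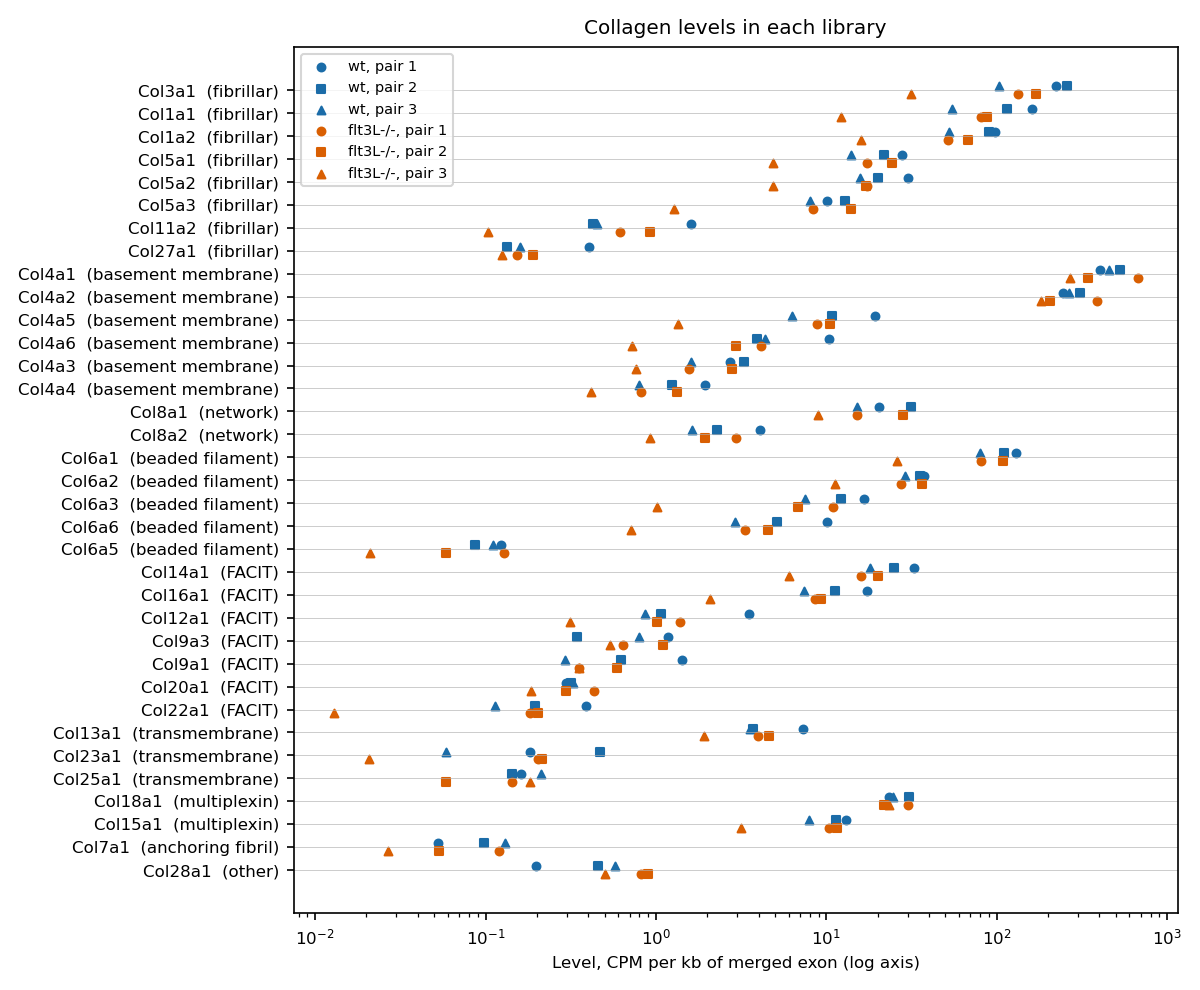
Level of each tested collagen in CPM per kb of merged exon on a log axis, ordered by class, with 1 point per library (blue for wt, orange for flt3L-/-, and circle, square and triangle for pair 1, 2 and 3). Col4a1 and Col4a2 lie at the top of the scale. The orange triangle, the flt3L-/- library of pair 3, is the lowest point in 30 of the 35 rows, which was not counted over all tested genes.

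At the other end, 9 members were not tested because fewer than 2 of their libraries exceeded 1 CPM. These were the fibrillar Col2a1, the main collagen of cartilage, Col11a1 and Col24a1, the growth plate collagen Col10a1, the type VI chain Col6a4, the FACITs Col9a2 and Col19a1, the hemidesmosome collagen Col17a1 and Col26a1. None of the 9 had more than 41 counts in a library, and Col10a1 had at most 3 counts in each, the limit below which no level can be given. The 35 tested members are thus a selection by level, and no count below is about all 44.

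As shares of the summed collagen CPM per kb, type IV collagens took 43.9%, 51.7% and 62.1% in wt libraries of pair 1, 2 and 3 and 67.2%, 46.9% and 74.2% in the flt3L-/- libraries. Fibrillar collagens took 35.6%, 31.3% and 20.9% in wt and 19.4%, 31.6% and 11.5% in flt3L-/- libraries. The type IV share was 52.6% ± 9.15 in wt and 62.7% ± 14.2 in flt3L-/- libraries (SD, n = 3), so the means lay closer than the libraries of a genotype, and in pair 2 the fibrillar shares of both genotypes lay side by side. Type VI collagens took 12.5%, 9.79% and 10.04% in wt and 7.68%, 13.0% and 6.34% in flt3L-/-. Multiplexins held between 2.33% and 4.30% of the sum. These are descriptions of levels, with no test. In bulk RNA, fewer cells of a type and less RNA per cell cannot be told apart.

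**Figure D2:**
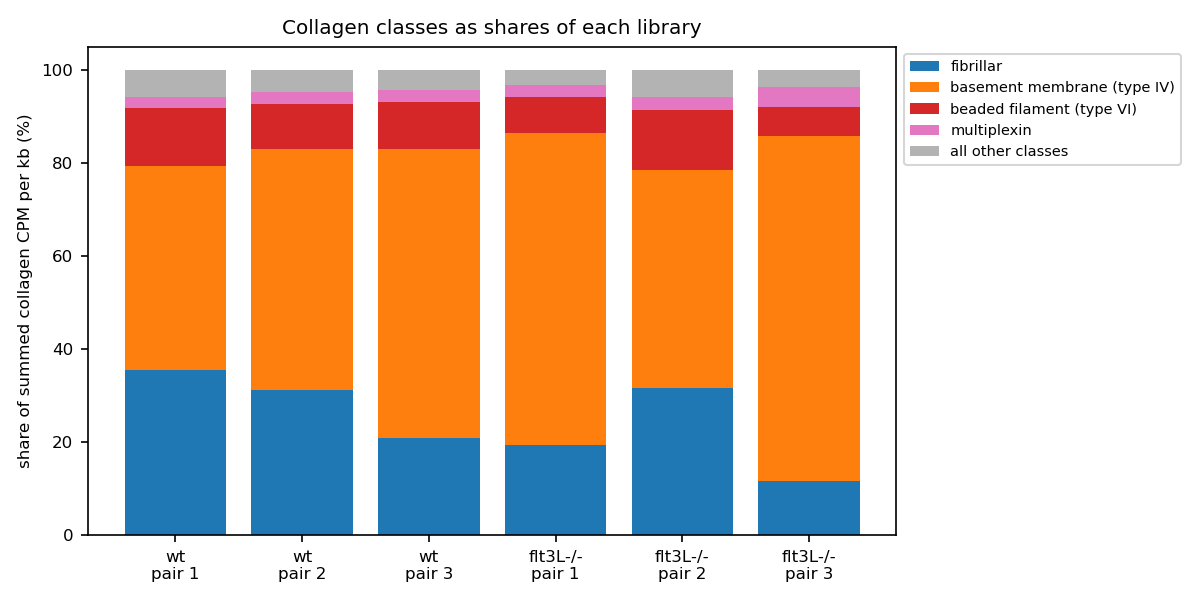
Share of collagen classes in the summed CPM per kb of all collagens, in percent, with 1 stacked bar per library. Fibrillar, type IV, type VI and multiplexin collagens are shown singly, and FACIT, network and all remaining classes are pooled in grey. The type IV share (orange) ranges from 43.9% in wt pair 1 to 74.2% in flt3L-/- pair 3, and the fibrillar share (blue) from 11.5% to 35.6%.

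The genotypes were compared in edgeR with the sorting date as a covariate. Most tested collagens had a lower fitted level in the flt3L-/- libraries, with class medians of -0.97 for FACITs, -0.89 for fibrillar, -0.86 for type VI and -0.70 for type IV collagens, and the lowest fold change in the type IV chain Col4a6. The fitted differences closest to 0 were those of Col9a3 (0.034), Col18a1 (-0.056), Col20a1 (-0.11), Col4a2 (-0.16) and Col4a1 (-0.23). The interval of Col4a1 given below also holds the type IV median of -0.70. Without pair 1, Col4a1 and Col4a2 had log2 fold changes of -0.70 and -0.56. Whether these genes differ from the other collagens was not tested. No collagen passed an adjusted p of 0.05, the smallest adjusted p being 0.973, and neither did any of the 13475 genes tested (0%). By DESeq2, 21 of all genes and 0 collagens passed. The study, which names an earlier edgeR release, did list genes at an adjusted p under 0.05. Among them were Serpinh1 as higher and Adamts2 as lower in flt3L-/-, but no collagen gene. It also reported collagen gene sets as lower in flt3L-/-. Why its calls differ from the 0 given here was not tested. At an unadjusted p under 0.05, 12 of the 35 tested collagens were lower in flt3L-/- (34.3%), against 2.49% of all tested genes, and 0 were higher, against 1.11%. In either direction, 484 of all genes (3.59%) had an unadjusted p under 0.05.

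The median log2 fold change of the 35 collagens was -0.70, against -0.00027 over all tested genes. The fitted level was lower for 33 of the 35, against 50% of all genes, and 16 of the 35 were lower in 3 of 3 pairs (45.7%), against 11.5% of all genes. For no collagen did all 3 flt3L-/- libraries lie below all 3 wt libraries, against 2.92% of all genes for which they did. The wt and flt3L-/- levels of every tested collagen thus overlapped, and the unadjusted p-values rest on the differences within pairs. Without the sorting date in the fit (no replicate block), 0 collagens had an unadjusted p under 0.05, against 1.25% of all genes on the lower side, and the median was -0.58. Leaving out pair 1, 2 or 3 gave 4, 21 or 2 collagens, respectively, that were lower at this p. The shares of all genes that were lower at this p moved with them, from 2.49% to 1.97%, 5.70% or 1.06%. The 2 that remained without pair 3 were Col6a3 and Col4a6, and of the 12, Col3a1 and Col6a3 were among the 4 without pair 1.

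**Figure D3:**
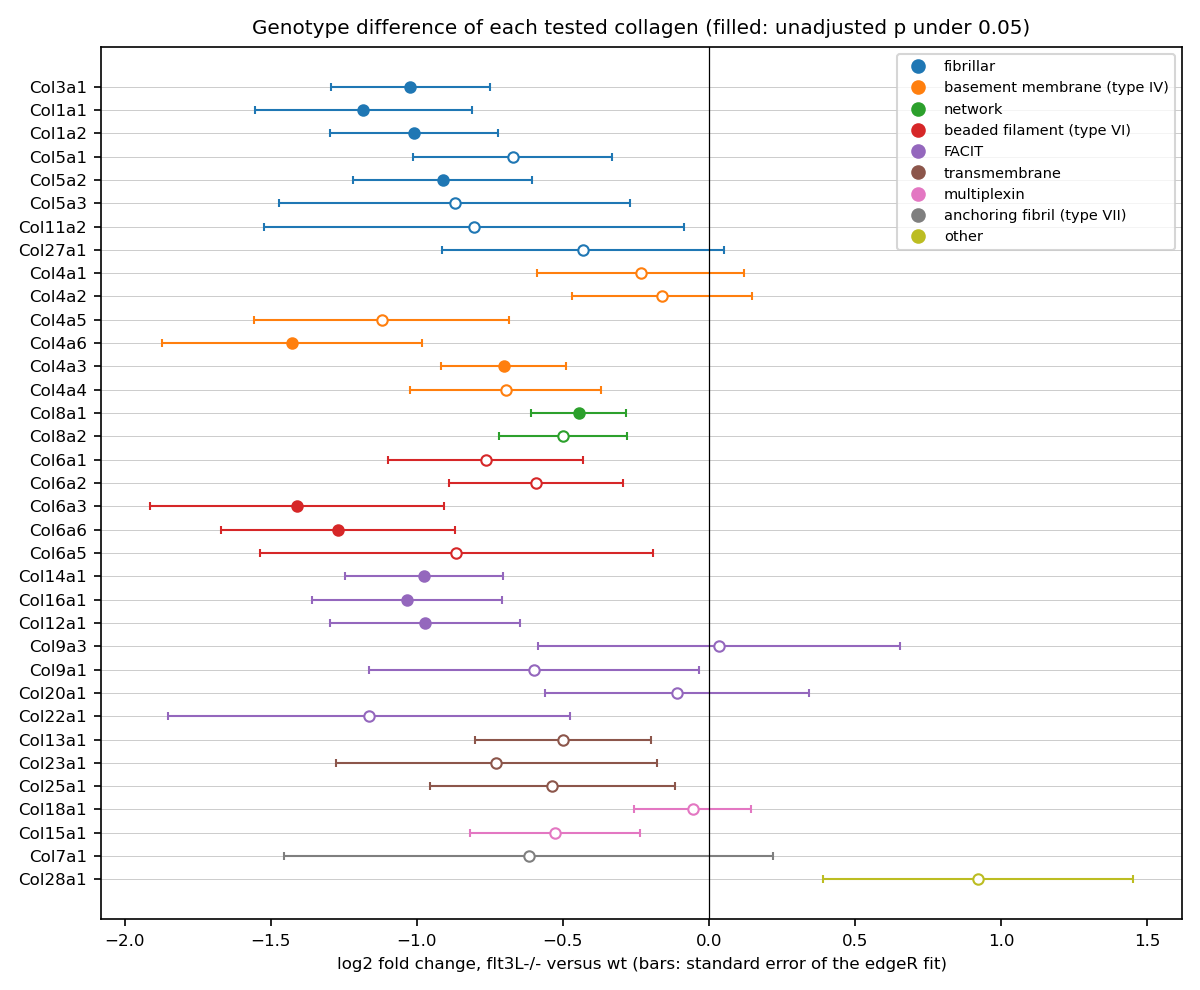
Log2 fold change of each tested collagen, flt3L-/- against wt, with the standard error of the edgeR fit as bars, coloured by class. Filled points mark an unadjusted p under 0.05, which 12 collagens had, all of them left of 0, and no collagen passed the adjusted threshold.

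The difference between genotypes was not of 1 size on the 3 sorting dates. The median log2 difference (flt3L-/- minus wt) over the 35 collagens was -0.75 in pair 1, -0.17 in pair 2 and -1.45 in pair 3. In these pairs 27, 24 and 34 of the 35 were lower, against 6188, 6690 and 6570 of all 13475 tested genes. Fibrillar collagens had medians of -0.86, -0.054 and -1.71, type IV -0.96, -0.33 and -0.99, type VI -0.62, -0.17 and -2.02, and FACITs -1.04, -0.089 and -1.45. In pair 2 single collagens went both ways, and 16 of the 35 differed by a log2 value of 0.4 or more in either direction, against 29 in pair 1 and 30 in pair 3. How many of all tested genes differed by this much in each pair was not counted. The abundant Col4a1, Col3a1 and Col4a2 were lower in flt3L-/- in pair 2, with log2 differences of -0.64, -0.61 and -0.59. Among classes with more than 1 tested member, most had their widest median difference on the date of the following year. These were the fibrillar, type VI, FACIT, network and multiplexin collagens and, by little, type IV (-0.99 against -0.96 in pair 1). The transmembrane median was widest in pair 2 (-1.07). Over all tested genes the pair medians were 0.040, 0.0035 and 0.014. Without pair 3, which holds the library that stood apart, the fitted medians were -0.50 for fibrillar, -0.55 for type IV, -0.34 for type VI, -0.64 for FACIT and -0.32 for network collagens, and 29 of the 35 collagens had a lower fitted level.

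**Figure D4:**
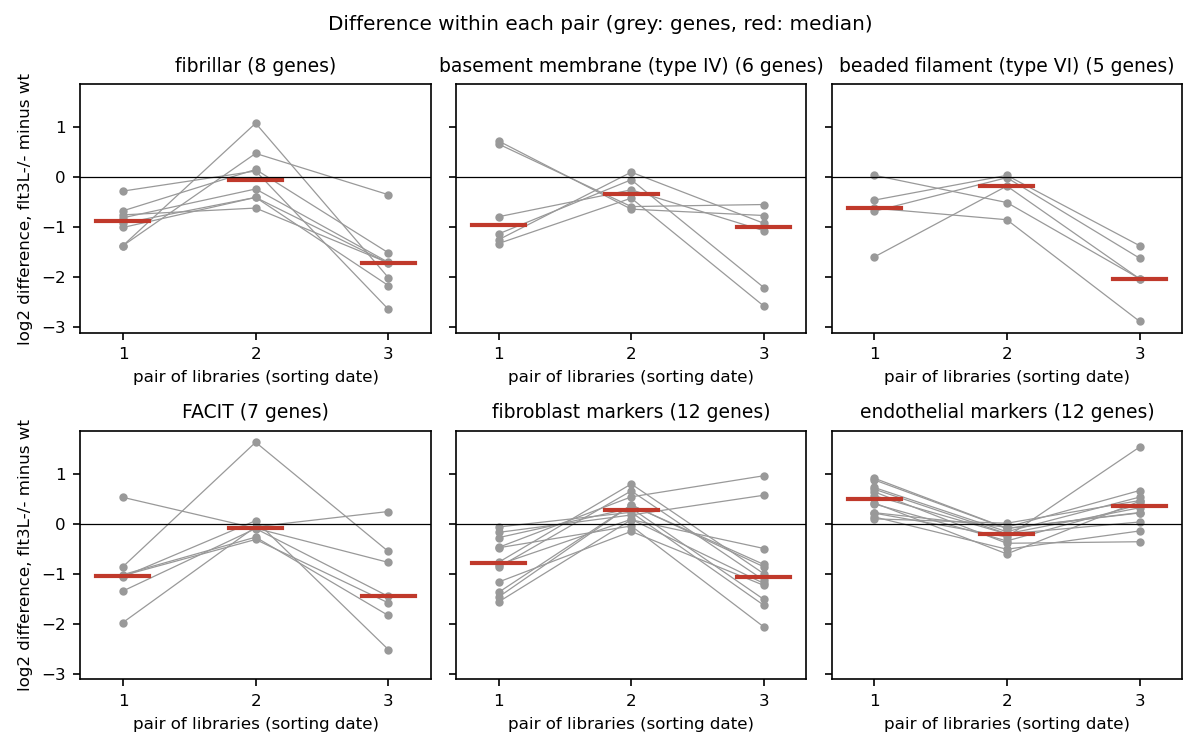
Log2 difference flt3L-/- minus wt within each pair of libraries sorted on 1 date, for 4 collagen classes and for fibroblast and endothelial markers, with 1 grey line per gene and the median in red. Fibrillar collagens have medians of -0.86, -0.054 and -1.71 in pair 1, 2 and 3, and fibroblast markers -0.79, 0.27 and -1.06.

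Of the 8 tested fibrillar collagens, 8 had a lower fitted level in flt3L-/- and 4 had an unadjusted p under 0.05, with a class median of -0.89. Col3a1 (chromosome 1, 45311538 to 45349706, plus strand) had 2191, 2552 and 1008 CPM in wt libraries of pair 1, 2 and 3 and 1302, 1667 and 308 CPM in the flt3L-/- libraries. The flt3L-/- library was lower on each date, yet wt pair 3 lay below both flt3L-/- libraries of the preceding year. Its log2 fold change was -1.02 (SE 0.27, unadjusted p = 0.0141 and adjusted p = 0.973 in edgeR).

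Col1a1 (chromosome 11, 94936224 to 94953042, plus strand) had 1063, 756 and 357 CPM in wt and 531, 572 and 79.6 CPM in flt3L-/- libraries. Its partner Col1a2 (chromosome 6, 4504814 to 4541544, plus strand) had 1212, 1118 and 652 CPM in wt and 641, 846 and 199 CPM in flt3L-/-. Both type I chains were lower in flt3L-/- in 3 of 3 pairs, and for both the wt range overlapped that of flt3L-/-. The log2 fold change was -1.18 for Col1a1 (SE 0.37, unadjusted p = 0.0259 in edgeR) and -1.01 for Col1a2 (SE 0.29, unadjusted p = 0.0183 in edgeR).

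Type V chains are built into the core of type I fibrils and limit their width. Col5a2 had 289.7, 193 and 152 CPM in wt and 165, 164 and 46.8 CPM in flt3L-/- libraries (log2 fold change -0.91, unadjusted p = 0.0328 in edgeR). Its partner Col5a1 had 235, 184 and 118 CPM in wt and 148, 206 and 41.4 CPM in flt3L-/- (-0.67, unadjusted p = 0.108 in edgeR). In pair 2, Col5a1 was slightly higher in flt3L-/-, and Col5a2 slightly lower. The other fibrillar members, Col5a3, Col11a2 and Col27a1, had log2 fold changes of -0.87, -0.80 and -0.43 with unadjusted p-values of 0.210 to 0.416 in edgeR.

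**Figure D5:**
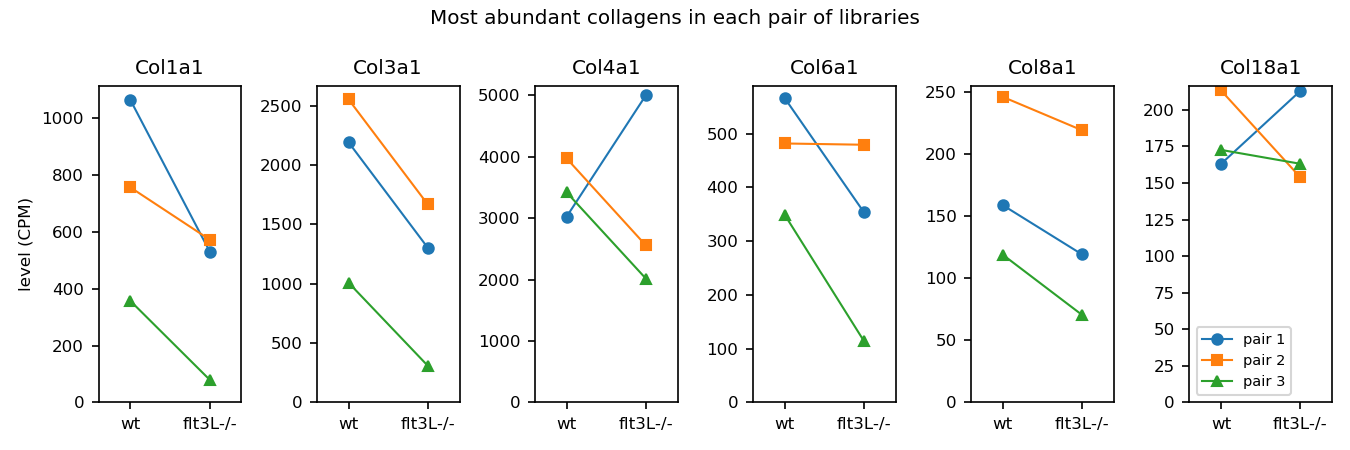
CPM of a leading collagen of 6 kinds in wt and flt3L-/- libraries, with 1 line per pair and each axis starting at 0. Col1a1, Col3a1, Col6a1 and Col8a1 slope down in each pair, although Col6a1 is nearly flat in pair 2, while Col4a1 and Col18a1 are higher in flt3L-/- in pair 1 and lower in the other pairs.

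In the type IV class, the most abundant chains and the minor chains had different values. Col4a1 (chromosome 8, 11198423 to 11312826, minus strand) had 3022, 3970.2 and 3418 CPM in wt and 4999, 2554 and 2014 CPM in flt3L-/- libraries. Col4a2 (chromosome 8, 11312805 to 11449287, plus strand) had 1611, 2047 and 1760.3 CPM in wt and 2553, 1364 and 1207 CPM in flt3L-/-. Both were higher in flt3L-/- in pair 1 and lower in pair 2 and 3, so their direction differed between dates. The log2 fold change was -0.23 for Col4a1 (95% interval -1.16 to 0.69) and -0.16 for Col4a2 (95% interval -0.96 to 0.64). Leaving out pair 3 turned the sign of both (0.044 and 0.039), and leaving out pair 2 that of Col4a2, whereas without pair 1 both had an unadjusted p under 0.05 (-0.70 and -0.56).

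The minor chains Col4a3, Col4a4 and Col4a5, known from the kidney glomerulus and from Alport syndrome, and the minor chain Col4a6 were far less abundant. Col4a6 had 82.2, 31.2 and 34.8 CPM in wt and 32.8, 23.4 and 5.78 CPM in flt3L-/- libraries (log2 fold change -1.43, SE 0.44, unadjusted p = 0.0252 in edgeR). Col4a3 had 27.1, 33.0 and 16.0 CPM in wt and 15.7, 27.7 and 7.60 CPM in flt3L-/- (-0.70, SE 0.21, unadjusted p = 0.0229 in edgeR). Both were lower in flt3L-/- on each of the 3 dates. Col4a5, the partner of Col4a6 in some basement membranes, had 130.2, 72.9 and 42.2 CPM in wt and 59.4, 70.5 and 9.10 CPM in flt3L-/- (-1.12, unadjusted p = 0.0525 in edgeR). Col4a4 had a log2 fold change of -0.70 (unadjusted p = 0.0888 in edgeR). Of the 6 type IV chains, 2 thus had an unadjusted p under 0.05, and the class median was -0.70.

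Type VI collagen is assembled from Col6a1, Col6a2 and a further chain, most often Col6a3, and its loss causes muscle disease. Col6a1 (chromosome 10, 76708792 to 76726168, minus strand) had 566, 482 and 349 CPM in wt and 353, 479 and 114 CPM in flt3L-/- libraries (log2 fold change -0.76, unadjusted p = 0.0735 in edgeR). Col6a2 had 313, 296 and 239.9 CPM in wt and 228, 304 and 93.0 CPM in flt3L-/- (-0.59, unadjusted p = 0.106 in edgeR). In pair 2 the levels of both chains were nearly the same in both genotypes. Col6a3 had 199.7, 146 and 89.5 CPM in wt and 130.1, 81.3 and 12.1 CPM in flt3L-/- libraries (-1.41, SE 0.50, unadjusted p = 0.0394 in edgeR). Unlike its partners, Col6a3 was lower in pair 2 as well, by a log2 difference of -0.85. Col6a6, a chain that can take the place of Col6a3, had 92.0, 47.2 and 26.9 CPM in wt and 30.4, 41.8 and 6.53 CPM in flt3L-/- (-1.27, SE 0.40, unadjusted p = 0.0263 in edgeR). Col6a5 was near the limit of the filter, with 0.198 to 1.202 CPM and a log2 fold change of -0.86. The class median was -0.86, and 2 of the 5 tested members had an unadjusted p under 0.05.

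FACITs were split between 3 abundant and 4 rare members. Col14a1, which binds decorin and the surface of collagen fibrils, had 229, 176 and 127 CPM in wt and 112, 142 and 42.3 CPM in flt3L-/- libraries (log2 fold change -0.98, SE 0.27, unadjusted p = 0.0165 in edgeR). Col16a1 had 118, 75.6 and 49.8 CPM in wt and 58.2, 62.8 and 13.9 CPM in flt3L-/- (-1.03, SE 0.32, unadjusted p = 0.0258 in edgeR). Col12a1, a FACIT of dense connective tissue, had 53.6, 16.4 and 13.2 CPM in wt and 21.1, 15.4 and 4.79 CPM in flt3L-/- (-0.97, SE 0.32, unadjusted p = 0.0321 in edgeR). All of these were lower in flt3L-/- in 3 of 3 pairs, and in pair 2 Col12a1 differed by only -0.095 on the log2 scale. The rare Col9a1, Col9a3, Col20a1 and Col22a1 reached at most 7.23 CPM, and their log2 fold changes ran from -1.16 to 0.034 with no unadjusted p under 0.05. The class median was -0.97.

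Both tested network collagens, whose type VIII chains form lattices below the endothelium and in vessel walls, were lower in flt3L-/- on each date. Col8a1 (chromosome 16, 57624258 to 57754737, minus strand) had 159, 246 and 119 CPM in wt and 119, 219 and 70.4 CPM in flt3L-/- libraries (log2 fold change -0.45, SE 0.16, unadjusted p = 0.0420 in edgeR). Col8a2 had 18.3, 10.2 and 7.34 CPM in wt and 13.3, 8.70 and 4.16 CPM in flt3L-/- (-0.50, unadjusted p = 0.0751 in edgeR). Pair 2 had the highest Col8a1 in both genotypes, and for Col8a2 pair 1 had it.

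Among multiplexins, Col18a1, the precursor of endostatin, had 163, 213 and 173 CPM in wt and 213, 154 and 163 CPM in flt3L-/- libraries. Its highest level was 1.39 times its lowest, the smallest spread of the 35 tested collagens, and its log2 fold change was -0.056 (95% interval -0.58 to 0.46). Col15a1, a collagen of capillaries and muscle cells, had 82.5, 72.2 and 49.98 CPM in wt and 66.3, 73.8 and 20.1 CPM in flt3L-/- (-0.53, unadjusted p = 0.133 in edgeR). The multiplexins thus included both a gene with little spread over the libraries and a gene that was lowest in the flt3L-/- library of pair 3.

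The remaining classes were low. Col13a1, a transmembrane collagen of cell adhesion sites and the neuromuscular junction, had 33.8, 17.2 and 16.4 CPM in wt and 18.2, 21.2 and 8.83 CPM in flt3L-/- libraries (log2 fold change -0.50, unadjusted p = 0.160 in edgeR). Col23a1 had 1.05, 2.68 and 0.335 CPM in wt and 1.17, 1.23 and 0.119 CPM in flt3L-/-, and Col25a1 had 2.10, 1.86 and 2.76 CPM in wt and 1.86, 0.764 and 2.37 CPM in flt3L-/-. Their log2 fold changes of -0.73 and -0.54 had unadjusted p-values of 0.245 and 0.259 in edgeR. Col7a1, the collagen of the anchoring fibrils of skin, had 0.544, 1.01 and 1.34 CPM in wt and 1.24, 0.552 and 0.277 CPM in flt3L-/- (-0.62, unadjusted p = 0.496 in edgeR). Col28a1 and Col9a3 were the 2 tested collagens with a higher fitted level in flt3L-/-, and that of Col9a3 turned to -0.0094 when libraries were scaled by size only. Col28a1 had 0.972, 2.25 and 2.83 CPM in wt and 4.01, 4.41 and 2.45 CPM in flt3L-/- libraries, and its log2 fold change was 0.92 (SE 0.53, unadjusted p = 0.145 in edgeR). Without pair 3, Col28a1 had an unadjusted p under 0.05 and a log2 fold change of 1.49.

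Chains that enter the same trimer or fibril kept different degrees of proportion. The ratio of Col4a1 to Col4a2, in CPM per kb, was 1.66, 1.72 and 1.72 in wt libraries of pair 1, 2 and 3 and 1.74, 1.66 and 1.48 in flt3L-/- libraries, although the level of Col4a1 itself varied 2.48-fold between libraries. The ratio of Col1a1 to Col1a2 ranged more widely, with 1.66, 1.28 and 1.04 in wt and 1.57, 1.28 and 0.759 in flt3L-/-. In both genotypes it was highest in pair 1 and lowest in pair 3, an order that was not tested. Whether the ratio of Col1a1 to Col1a2 lies above or below 1 depended on the gene length used, as its mean was 1.26 with merged exons and 0.602 with the longest transcript.

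Col6a1 to Col6a2 gave 3.44, 3.10 and 2.76 in wt and 2.94, 3.00 and 2.33 in flt3L-/-. Col6a3 to Col6a1 gave 0.129, 0.111 and 0.0939 in wt and 0.135, 0.0621 and 0.0390 in flt3L-/-, so the chain that completes the trimer was relatively lowest in flt3L-/- pair 2 and 3. The ratio of Col8a2 to Col8a1 was nearly equal in both libraries of each date, with 0.201, 0.0723 and 0.108 in wt and 0.195, 0.0692 and 0.103 in flt3L-/-. Col5a2 to Col5a1 ranged from 0.707 to 1.14 and Col3a1 to Col1a1 from 1.38 to 2.59. With the longest transcript, the mean ratios of Col6a1 to Col6a2, Col3a1 to Col1a1 and Col5a2 to Col5a1 moved from 2.93, 1.95 and 0.977 to 1.85, 3.11 and 1.401. Chosen after its values had been seen, the ratio of Col3a1 to Col4a1 was 0.551, 0.489 and 0.224 in wt and 0.198, 0.496 and 0.116 in flt3L-/-. None of these ratios was tested.

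The sorting date was tested in the same fit with genotype as a covariate. At an unadjusted p under 0.05, 16 of the 35 tested collagens differed between dates (45.7%), against 8.28% of all tested genes. In edgeR, 0 collagens passed an adjusted p of 0.05 (smallest 0.598), as did 0 of all genes (0%), whereas by DESeq2 12 of the 35 collagens did (34.3%), against 2.89% of all genes in that fit. In the edgeR fit the smallest unadjusted p-values were 0.00342 for Col8a1, 0.00767 for Col3a1 and 0.00848 for Col4a3, and for each of them pair 2 had the highest and pair 3 the lowest level in both genotypes. Among the fibrillar collagens 5 of 8 had an unadjusted p under 0.05 for the date, among FACITs 3 of 7, and in the type IV, network and type VI classes 2 each. Col4a1, Col4a2 and Col18a1 were not among them, with p-values of 0.421, 0.438 and 0.785 in edgeR. Leaving out pair 1 or pair 3 lowered the count of 16 to 7 and 5, against 5.67% and 5.25% of all genes, and leaving out pair 2 raised it to 23, against 14.4%.

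Genes that make, process and bind collagen were described from 3 lists. For folding and modification in the endoplasmic reticulum, 21 of 21 genes were tested, 2 were lower and 4 higher at an unadjusted p under 0.05, against 2.49% lower and 1.11% higher of all tested genes, and the median log2 fold change was -0.071. Serpinh1, the collagen chaperone of the endoplasmic reticulum, had 1139, 984 and 942 CPM in wt and 4842, 3394 and 2737 CPM in flt3L-/- libraries. All flt3L-/- libraries lay above all wt libraries, with a log2 fold change of 1.80 (SE 0.19, unadjusted p = 2.75e-04 and adjusted p = 0.973 in edgeR). The other 3 on the higher side were the prolyl hydroxylase subunits P4ha1 and P4ha2 and the lysyl hydroxylase Plod1, with log2 fold changes of 0.83, 0.77 and 0.60, and the 2 on the lower side were P4ha3 and P3h3, with -0.89 each. P4ha3 itself was rare, with 5.83, 2.72 and 1.34 CPM in wt and 3.24, 1.36 and 0.752 CPM in flt3L-/- libraries (unadjusted p = 0.0388 in edgeR). The names beside Serpinh1 and P4ha3 were added after their values had been seen.

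For procollagen processing and cross-linking, 14 of 14 genes were tested, 2 were lower and 0 higher at an unadjusted p under 0.05, against the same shares of all genes, with a median of -0.54. Adamts2, which removes the amino-terminal propeptide of fibrillar procollagens, had 197, 177 and 23.7 CPM in wt and 108, 64.7 and 10.1 CPM in flt3L-/- libraries (log2 fold change -1.18, SE 0.16, unadjusted p = 9.81e-04 in edgeR). It was lower on each date, and wt pair 3 lay below 2 of the flt3L-/- libraries. The proteinase Tll1, the gene with the smallest p on the higher side of this list (0.698 in edgeR), had 1.24, 3.10 and 0.894 CPM in wt and 2.15, 3.31 and 0.673 CPM in flt3L-/- libraries. Of 10 listed receptors 9 were tested, with 1 lower and 0 higher, again against 2.49% and 1.11% of all genes, and a median of -0.63. The gene on the lower side was Lair1, an inhibitory collagen receptor of leukocytes, with 0.816, 3.22 and 3.76 CPM in wt and 0.146, 1.74 and 0.673 CPM in flt3L-/- libraries (-1.87, unadjusted p = 0.0180 in edgeR). Itgb1, the shared beta chain of the collagen-binding integrins, had 1309, 1346 and 1456 CPM in wt and 1572, 1233 and 1689 CPM in flt3L-/- libraries, with a log2 fold change of 0.12 (unadjusted p-value 0.510 in edgeR). No gene of the 3 lists passed the adjusted threshold in edgeR, and 2 did by DESeq2.

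Markers of the cell types that the SP gate could hold, none of them collagens, moved between libraries beside these values. The 12 fibroblast markers summed to 14897, 7925 and 6657 CPM in wt libraries of pair 1, 2 and 3 and to 6107, 9938 and 3608 CPM in flt3L-/- libraries. Their median log2 difference was -0.79, 0.27 and -1.06 in pair 1, 2 and 3, with 12, 2 and 10 of 12 lower, so they were lower in flt3L-/- in the pairs in which the fibrillar collagens were most clearly lower and higher in pair 2, where the fibrillar median was -0.054. Over the fit their median was -0.55, and 1 of 12, Mfap4, was lower at an unadjusted p under 0.05, against 2.49% of all tested genes.

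The 12 endothelial markers summed to 9187, 12030.4 and 12348 CPM in wt and to 12703, 9963 and 14803 CPM in flt3L-/-, with pair medians of 0.49, -0.20 and 0.35. In pair 1 and 2 they lay on the same side as Col4a1 and Col4a2, and in pair 3 on the other. Pericyte and smooth muscle markers summed to 585 to 1037 CPM in wt and 539.5 to 779.8 CPM in flt3L-/- (median log2 fold change -0.42). At an unadjusted p under 0.05, 2 of 12 were lower, against 2.49% of all tested genes. Their pair medians of -0.36, 0.23 and -0.69 had the same signs as those of the fibroblast markers. Macrophage and monocyte markers summed to 151, 931 and 2455 CPM in wt and to 442, 1340.4 and 189 CPM in flt3L-/- (median -0.21, none of 12). Their pair medians were 0.81, 0.48 and -2.79.

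Lymphocyte and NK markers summed to 51.9 to 217 CPM in wt and 33.2 to 118 CPM in flt3L-/- (median -0.57). Of the 8 tested, 1 was lower, against 2.49% of all tested genes. Their pair medians of -0.074, 0.47 and -2.29 also had the signs of the fibroblast markers. Mesothelial markers summed to 32.3 to 82.2 and 49.97 to 77.9 CPM (0.16, none of 8). Cardiomyocyte markers summed to 133 to 196 and 202 to 236 CPM (0.40, with 1 of the 9 tested higher, against 1.11% of all tested genes). Schwann cell and glial markers summed to 8.57 to 31.1 and 11.5 to 23.8 CPM (0.053, none of the 3 tested). The pair medians of these 3 lists were 1.60, 0.032 and -0.89, then 0.74, 0.13 and 0.15, and then -1.12, 0.61 and 0.39. No marker looked up for these lists was at 0 in every library. Trbc2, named on the lymphocyte and NK list, was not among them, because only genes annotated as protein-coding were looked up. The part of cell composition in the collagen differences was not tested.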

How the data were processed

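The authors deposited a table of counts per gene, without normalization. According to the methods of the study, libraries were made with an unstranded kit, single reads of 81 bases were mapped to mm10 with STAR 2.5.2a with at most 10 hits per read, and QuasR 1.18.0 counted a read for a gene of Ensembl release 88 if it began inside an exon. Reads with several equally good hits were assigned at random, and the counts are without strand. The submitters' processing notes also name FastQC 0.11.3.

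Symbols, exon lengths and positions came from a GENCODE annotation of GRCm38, which held 50376 of the 50600 identifiers. Tests ran on the 13475 protein-coding genes that exceeded 1 CPM in 2 or more libraries, in edgeR 4.0.16 on R 4.3.3, with TMM factors of 0.941 to 1.05, glmQLFit and glmQLFTest (legacy = TRUE) and sorting date as covariate, and p-values were adjusted by Benjamini-Hochberg at 0.05. The degrees of freedom were 2 residual and 2.79 prior, at a common dispersion of 0.0978. Log2 differences within pairs used a prior count of 2, and levels between genes are CPM per kb of merged exons, with the longest transcript as the alternative. Promoter windows came from RefSeq on GRCm38.p6. The pairing by sorting date comes from the labels. Deviations from the group means correlated by 0.180, 0.104 and 0.116 between libraries of the same date and by -0.354 to 0.247 between different dates. DESeq2 1.42.0 was an alternative.

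The collagens, classes and gene lists were chosen with earlier results of these data known. Values per library are given for the 3 most abundant tested members of each class, every member with an unadjusted p under 0.05 for genotype, the 3 with the smallest p for the date, and the gene of each pathway list with the smallest p in each direction. Col5a1, Col4a4, Col6a5, Col9a3 and Col20a1 were named after their values had been seen. Protein sequences were not used here.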

Additional observations from a re-analysis of the deposited data

How the results depend on the processing

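The count of 0 collagens at an adjusted p under 0.05 for genotype held under other normalizations, DESeq2, other filters, all biotypes, thinned libraries, no replicate block and each pair left out. DESeq2 called 21 of all genes for genotype, 2 genes of the pathway lists and, for the sorting date, 12 of the 35 collagens, against 2.89% of all genes. Counts at an unadjusted p under 0.05 depended on the pairs. For all genes, 484 became 262 with no replicate block and 249 to 980 with a pair left out. The 12 lower collagens became 0 with no replicate block and 2 to 21 with a pair left out, with the 2 arising without pair 3, and the 0 higher ones became 0 to 1. The 9 pathway genes became 5 with no replicate block and 4 to 16 with a pair left out. The 16 collagens for the date became 5 to 23, and 0 to 2 passed the adjusted threshold.

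With a pair left out, the log2 fold change ran from -0.70 to 0.044 for Col4a1, -0.56 to 0.039 for Col4a2, -0.74 to 0.55 for Col9a3, -0.28 to 0.13 for Col18a1, -1.54 to 0.17 for Col7a1 and -0.14 to 0.43 for Tll1. Col9a3 was also at -0.0094 with library size only and at -0.025 with no replicate block. The length of the longest transcript in place of merged exons moved the mean ratio of Col1a1 to Col1a2 from 1.26 to 0.602, Col4a1 to Col4a2 from 1.66 to 1.83, Col6a1 to Col6a2 from 2.93 to 1.85, Col3a1 to Col1a1 from 1.95 to 3.11 and Col5a2 to Col5a1 from 0.977 to 1.401. The median log2 fold change of the collagens stayed below 0 under every alternative, from -1.06 without pair 2 to -0.47 without pair 3. Leaving out a pair leaves 2 libraries per genotype, and members under 3 counts in a library have no level that depth can resolve.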
